A study of Mus musculus with 18 samples.

Results

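Voltage-gated calcium channels let calcium into a neuron when its membrane is depolarized. The 10 subunit genes Cacna1a, Cacna1b, Cacna1c, Cacna1d, Cacna1e, Cacnb1, Cacnb3, Cacnb4, Cacna2d1 and Cacna2d2 were followed by symbol through every probe set annotated to them. A probe set is a group of short array oligonucleotides that together read 1 transcript. Of these 10 genes, 9 had at least 1 probe set in the tables used here, against 18194 gene symbols in all, and the signal of Cacnb3 was not analysed here. They carried 29 probe sets, of which 24 were bright enough to be tested, 12 of 17 on the first array set (A) and 12 of 12 on the second (B).

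The material was total RNA from mouse cortical neurons grown for 7 days in culture and then depolarized with KCl for 0, 1 or 6 h. The labels give postnatal day 0 and also call the cultures embryonic, and they give 55 mM KCl where the series text gives 50 mM. No genotype, strain or transgene is given in the sources used here. RNA of each time was hybridized to 3 arrays of set A and 3 of set B, from 3 independent experiments, which makes 9 arrays of each set. All groups thus share the same culture and differ in the hours of KCl.

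In a functional channel an alpha1 subunit, encoded by the Cacna1 genes, forms the calcium pore and senses voltage. A cytoplasmic beta subunit (Cacnb genes) brings the pore to the membrane and sets its gating, and an extracellular alpha2delta subunit (Cacna2d genes) aids its surface expression and placement at synapses. L-type pores (Cacna1c, Cacna1d) couple depolarization to transcription in neurons, while P/Q-type (Cacna1a) and N-type (Cacna1b) pores open transmitter release at nerve terminals.

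Array medians lay between 164 and 196 intensity units on set A and between 181 and 275 on set B, and the median residual SD was 0.276 and 0.729 log2 on these sets. The background level, taken as the 95th percentile over 27 control probe sets for bacterial transcripts, lay at 74.8 units for set A arrays and at 369 for those of set B. The stimulus registered in the cultures. Fos, an immediate early transcription factor, was 6.58 log2 higher at 1 h than at 0 h (adjusted p = 1.74e-10) and 3.91 log2 higher at 6 h (adjusted p = 4.8e-08). Egr1 was 5.74 and 1.31 log2 higher at 1 h and 6 h than at 0 h. Arc was at least 17.6-fold higher at 1 h than at 0 h and Npas4 at least 82.4-fold, and Bdnf was 3.39 log2 higher at 6 h than at 0 h. Summed signals of neuronal markers ran from 44164 to 46216 units at 0 h, 45224 to 49122 at 1 h and 46257 to 48847 at 6 h. Single neuronal markers moved both ways. Of 10, 2 were higher and 1 lower at 6 h than at 0 h at an adjusted p under 0.05. Of all genes 6.11% were higher and 10.5% lower. Summed signals of astrocyte markers ran from 13922 to 14559 units at 0 h, 9305 to 12502 at 1 h and 9463 to 11595 at 6 h. Those of 4 oligodendrocyte-lineage markers ran from 6191 to 8480 units at 0 h, 5073 to 6828 at 1 h and 5726 to 7500 at 6 h. Those of 4 microglial markers ran from 631 to 825 units at 0 h, 652 to 690 at 1 h and 563 to 621 at 6 h. Those of 6 markers of vascular cells and fibroblasts ran from 793 to 953 units at 0 h, 691 to 1126 at 1 h and 723 to 921 at 6 h. Of 4 muscle markers, Cacna1s and Myog were not tested. The summed signals of the 2 tested ones ran from 267 to 299 units at 0 h, 287 to 319 at 1 h and 286 to 352 at 6 h.

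The ratio of 5′ to 3′ control signals, a measure of RNA quality, also moved with time. For Actb on set A it was 0.391 ± 0.122 at 0 h, 0.669 ± 0.0496 at 1 h and 0.574 ± 0.0204 at 6 h (SD, n = 3 each). The exact permutation p was 0.1 at 1 h and at 6 h against 0 h, two-sided and the smallest that 3 against 3 arrays allow. For Gapdh on set A it was 0.859 at 0 h, 1.17 at 1 h and 1.21 at 6 h. Its part in the results was not tested. Fits with each ratio as a covariate are given for the calcium channel and signalling genes whose calls against 0 h they ended. The ratio moved with the hours of KCl, so such a fit cannot tell the 2 apart. Under it some folds shrank and others did not. The 6 h change of Cacna1d 1427974_s_at was -1.64 log2 with the Actb ratio and -1.63 log2 without, yet its call ended. In a bulk culture, less RNA per cell and fewer cells of a type cannot be told apart.

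After 6 h of KCl 3 of 9 genes had at least 1 of their probe sets past the threshold against 0 h. The share of all genes with at least 1 such probe set was not counted, and more probe sets give a gene more chances. The N-type pore gene Cacna1b was lower on 2 of its 3 tested probe sets, the L-type pore gene Cacna1d was lower on 1 of 2, and the alpha2delta gene Cacna2d1 was higher on 1 of 5. At 1 h no member passed. Each gene was also read by its brightest tested probe set alone, with set A first. At 6 h 1 of 9 genes then passed, where 16.6% of all genes did. Among set A subunit probe sets 2 of 12 passed at 6 h (16.7%), where 22.1% of all set A probe sets did. Among those of set B 2 of 12 passed, where 5.01% of all did. Blocked by replicate number on set B, where same-numbered arrays deviated together, Cacna2d1 passed at 1 h and at 6 h and Cacna1e at 6 h as well. On set A, where they deviated together less, the block added calls of Cacna2d1 at 1 h and Cacna1a at 6 h. Fold changes are log2 differences of (signal + 16), tested with limma and adjusted over all probe sets of the array set, and an adjusted p under 0.05 counted as passing.

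Promoter windows are shown for these 3 genes. They hold the 250 bases upstream of a RefSeq start (build GRCm38.p6, 5′ to 3′ on the gene's own strand), with matches to the motifs searched in capitals. The motifs were the cAMP response element (CRE) TGACGTCA, its half-site TGACG, the AP-1 site TGANTCA, the EGR site GCGTGGGCG, the GC box GGGCGG and the E-box CACGTG, on both strands, with overlapping matches counted. Half-site matches inside a CRE would count for both.
Cacna1b, chr2:24763153-24763402, minus strand: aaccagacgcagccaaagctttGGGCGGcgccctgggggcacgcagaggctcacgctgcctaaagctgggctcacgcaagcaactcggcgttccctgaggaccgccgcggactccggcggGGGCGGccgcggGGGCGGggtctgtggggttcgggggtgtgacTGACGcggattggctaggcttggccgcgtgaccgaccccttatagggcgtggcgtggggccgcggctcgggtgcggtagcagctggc
Cacna1d, chr14:30353487-30353736, minus strand: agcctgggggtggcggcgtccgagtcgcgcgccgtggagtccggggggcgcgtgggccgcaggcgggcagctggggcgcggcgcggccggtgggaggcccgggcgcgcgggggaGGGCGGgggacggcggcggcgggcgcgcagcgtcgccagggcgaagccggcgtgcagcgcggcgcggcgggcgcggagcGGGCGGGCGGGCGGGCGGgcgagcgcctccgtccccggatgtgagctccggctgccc
Cacna1d, chr14:30491157-30491406, minus strand: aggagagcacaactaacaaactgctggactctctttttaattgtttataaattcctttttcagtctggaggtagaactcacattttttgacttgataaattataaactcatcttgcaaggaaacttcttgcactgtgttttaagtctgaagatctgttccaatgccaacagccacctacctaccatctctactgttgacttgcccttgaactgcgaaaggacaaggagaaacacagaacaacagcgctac
Cacna2d1, chr5:15934441-15934690, plus strand: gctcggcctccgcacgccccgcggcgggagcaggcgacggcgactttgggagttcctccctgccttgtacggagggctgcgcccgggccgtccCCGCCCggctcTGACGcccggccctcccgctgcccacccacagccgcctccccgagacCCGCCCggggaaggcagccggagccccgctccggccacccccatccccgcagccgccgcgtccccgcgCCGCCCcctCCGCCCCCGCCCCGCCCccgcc
The Cacna1b window held 3 GC boxes and 1 CRE half-site at 72% G+C. The upper Cacna1d window held 5 GC boxes, 4 of them overlapping, at 86.4% G+C, and the lower one held no match at 39.6% G+C. Cacna2d1 had 6 GC boxes and 1 half-site at 82.4% G+C. The median over all 32851 windows was 52.4% G+C.

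RefSeq windows were found for 9 of the 10 symbols, 16 windows in all, and Cacna1a had no entry. GC boxes were in 8 of these 16 windows, against 32.7% of all windows, and CRE half-sites in 3 of 16, against 17.8%. The full CRE, the AP-1 site, the EGR site and the E-box had no match in the 16 windows, and were in 1.55%, 6.75%, 0.536% and 6.02% of all windows. These matches describe the letters of the windows only, and the probe sets were not tied to 1 start or the other.

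The presynaptic pore genes come first. Cacna1b encodes the N-type pore. On set B its probe set 1460608_at read 4313, 3313 and 2976 units at 0 h, 3731, 3019 and 2703 at 1 h, and 1861, 1388 and 958 at 6 h. All 3 arrays at 6 h lay below all arrays at 0 h and at 1 h, while the 1 h and 0 h arrays overlapped. The fold change was -1.28 ± 0.19 log2 at 6 h against 0 h (SE, 95% interval -1.70 to -0.86, adjusted p = 0.00219), which is a fold of 0.411. At 1 h against 0 h it was -0.11 log2 (adjusted p = 0.999), and between 6 h and 1 h it was -1.18 log2 (adjusted p = 0.00741).

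A further Cacna1b probe set, 1436602_x_at, read 4582, 3125 and 3299 units at 0 h, 3688, 3371 and 2732 at 1 h, and 2247, 1146 and 995 at 6 h. The suffix _x_at marks probe sets whose oligonucleotides may also match other transcripts. Its arrays were again lowest at 6 h with no overlap, at -1.33 ± 0.22 log2 against 0 h (adjusted p = 0.00353) and -1.23 log2 against 1 h (adjusted p = 0.0109). The third, 1439612_at, read 923, 1261 and 1750 units at 0 h, 2024, 1170 and 1724 at 1 h, and 447, 1029 and 710 at 6 h. Its 6 h arrays overlapped those of 0 h and lay below those of 1 h. The differences of -0.86 ± 0.35 log2 against 0 h (adjusted p = 0.252) and -1.15 log2 against 1 h (adjusted p = 0.141) did not pass. Blocked by replicate number, the difference between 6 h and 1 h passed at adjusted p = 0.043. The fourth, 1425812_a_at on set A, stayed between 11.0 and 82.5 units and was not tested.

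Both changes of Cacna1b at 6 h held without each array in turn. They no longer passed once the Gapdh 5′ to 3′ ratio entered the fit, at -1.03 log2 (adjusted p = 0.17) for 1460608_at and -1.22 log2 (adjusted p = 0.171) for 1436602_x_at, or with the Actb ratio, at -1.45 log2 (adjusted p = 0.191) and -1.60 log2 (adjusted p = 0.187). Median scaling and eBayes without the intensity trend also ended both calls with folds as large or larger, at -1.53 and -1.28 log2 for 1460608_at (adjusted p = 0.111 and 0.0875) and -1.56 and -1.33 log2 for 1436602_x_at (adjusted p = 0.137 and 0.1). Between 6 h and 1 h both calls ended with pseudocount 64, on the deposited scale, with median scaling and without trend, at -1.29 to -1.17 log2 (adjusted p up to 0.402) for 1460608_at and -1.33 to -1.20 log2 (adjusted p up to 0.469) for 1436602_x_at.

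Cacna1a encodes the P/Q-type pore of fast transmitter release. On set A its probe set 1450510_a_at read 251, 189 and 155 units at 0 h, 191, 80.4 and 147 at 1 h, and 137, 65.5 and 98.3 at 6 h. The 6 h arrays lay below all 0 h arrays and overlapped those of 1 h. The difference at 6 h was -0.91 ± 0.35 log2 against 0 h, with an adjusted p of 0.0804, and so did not pass. Blocked by replicate number it passed at adjusted p = 0.0381. Its other set A probe set, 1459996_at, differed by -0.75 log2 (adjusted p = 0.266), with groups that overlapped. On set B both Cacna1a probe sets read below background on all arrays of 0 h and 6 h, and no fold is given for them.

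Cacna1e encodes the R-type pore, found on dendrites, cell bodies and terminals. On set B 1436260_at read 2843, 2040 and 2032 units at 0 h, 2128, 1856 and 1752 at 1 h, and 868, 1226 and 1390 at 6 h. The 6 h arrays lay below every array of 0 h and of 1 h. The difference at 6 h against 0 h was -0.87 ± 0.24 log2 (95% interval -1.39 to -0.35, adjusted p = 0.0596), just outside the threshold. Blocked by replicate number it passed at adjusted p = 0.0235, and without replicate 3 at 6 h it was -1.07 log2 at adjusted p = 0.0348. A set A probe set, 1421692_at, stayed between 15.5 and 87.3 units and was not tested.

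**Figure D1:**
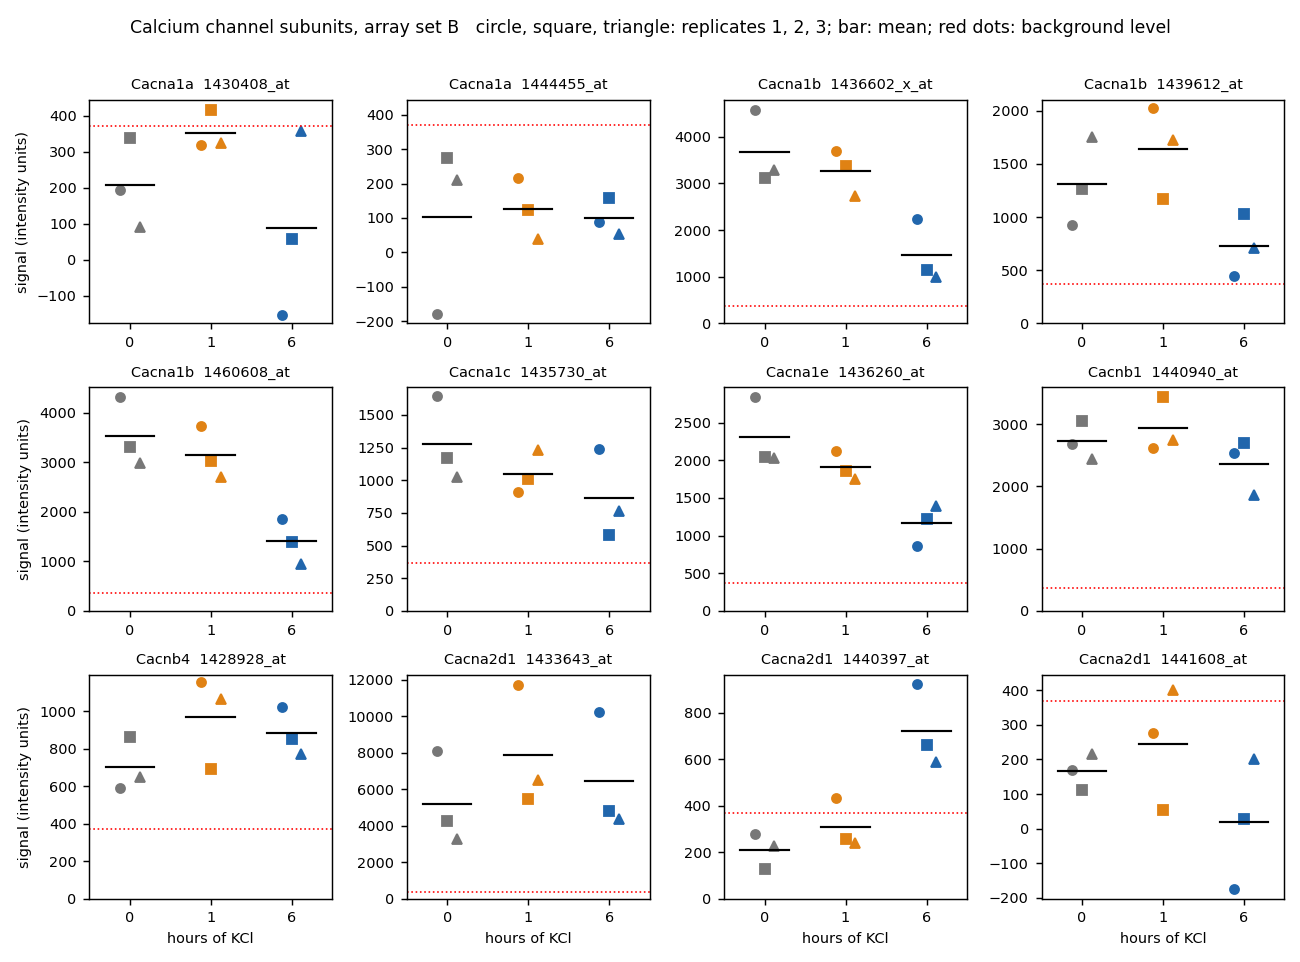
Signal of the 12 subunit probe sets on array set B, in deposited intensity units, against hours of KCl. Circles, squares and triangles are replicates 1, 2 and 3, bars are means and red dots the background level of 369 units. The 3 arrays at 6 h lie lowest for Cacna1b 1460608_at and 1436602_x_at and Cacna1e, and highest for Cacna2d1 1440397_at.

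The L-type pore genes come next. Cacna1d encodes the L-type pore that opens at lower voltages. Its probe set 1427974_s_at on set A read 169, 204 and 156 units at 0 h, 247, 116 and 290 at 1 h, and 37.5, 53.2 and 48.2 at 6 h. Every array at 6 h was below background and below all others, while those of 0 h and 1 h overlapped. The change at 6 h was at least 2.11-fold lower than at 0 h (fitted -1.63 ± 0.33 log2, adjusted p = 0.00414) and at least 2.42-fold lower than at 1 h (fitted -1.83 log2, adjusted p = 0.00403).

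The other Cacna1d probe set did not show this. On set A 1428051_a_at read 148, 140 and 195 units at 0 h, 291, 179 and 235 at 1 h, and 181, 197 and 189 at 6 h, with groups that overlapped. It differed by 0.50 ± 0.24 log2 at 1 h against 0 h (adjusted p = 0.267) and by 0.22 ± 0.24 log2 at 6 h against 0 h (95% interval -0.28 to 0.73, adjusted p = 0.563). The probe sets of Cacna1d thus disagree, and which transcripts each reads was not tested. With the Gapdh ratio as a covariate the fitted 6 h difference of 1427974_s_at was -1.10 log2 (adjusted p = 0.308), and with the Actb ratio it was -1.64 log2 (adjusted p = 0.108), so that the call ended under both.

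Cacna1c encodes the main L-type pore of the brain. On set A 1421297_a_at read 236, 290 and 231 units at 0 h, 261, 156 and 146 at 1 h, and 162, 149 and 224 at 6 h. Its 6 h arrays lay below those of 0 h, by a narrow margin for replicate 3, as did those of 21.8% of all set A probe sets. The difference of -0.48 ± 0.26 log2 at 6 h (95% interval -1.04 to 0.08, adjusted p = 0.219) did not pass. On set B 1435730_at read 1645, 1166 and 1025 units at 0 h, 912, 1006 and 1228 at 1 h, and 1235, 584 and 761 at 6 h. The 6 h arrays overlapped those of 0 h, and the difference of -0.65 ± 0.28 log2 (95% interval -1.27 to -0.04, adjusted p = 0.302) did not pass after adjustment.

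Beta subunits showed no change that passed. Cacnb1 had its brightest set A probe set, 1425777_at, at 505, 480 and 399 units at 0 h, 448, 466 and 487 at 1 h, and 531, 464 and 367 at 6 h. The times overlapped throughout, and the 95% interval at 6 h against 0 h was -0.41 to 0.34 log2. The other tested Cacnb1 probe sets differed at 6 h by 0.60 log2 (1426108_s_at, adjusted p = 0.156) and -0.09 log2 (1440940_at, adjusted p = 0.946), and 1451834_at was too dim to be tested.

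Cacnb4, a beta subunit of cerebellum and forebrain, had 1452089_at on set A at 18.1, 145 and 54.5 units at 0 h, 121, 55.5 and 99.3 at 1 h, and 225, 180 and 122 at 6 h. One array at 0 h, replicate 2, lay among those of 6 h and was the 1 of 3 there above background. The difference at 6 h was 1.35 ± 0.50 log2 (adjusted p = 0.0726), and without that array it was 1.93 log2 (adjusted p = 0.0139). The brighter Cacnb4 probe set of set B, 1428928_at, differed by 0.25 log2 (adjusted p = 0.823), and 1436912_at on set A by 0.10 log2 (adjusted p = 0.917).

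Cacna2d1 encodes an alpha2delta subunit that binds gabapentin. Its probe set with the highest signals, 1433643_at on set B, read 8103, 4270 and 3245 units at 0 h, 11702, 5452 and 6522 at 1 h, and 10222, 4800 and 4356 at 6 h. Replicate 1 was the highest array at each time and the groups overlapped, yet within each replicate number the 1 h and 6 h arrays both exceeded that of 0 h. The difference was 0.69 log2 at 1 h (adjusted p = 0.619) and 0.43 log2 at 6 h (adjusted p = 0.527). Blocked by replicate number both passed, at adjusted p = 0.019 and 0.0429. The 3 arrays numbered 1 on set B are those that hold values below 0, so that this block also takes up whatever sets them apart.

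On set A 1449999_a_at read 245, 191 and 235 units at 0 h, 612, 228 and 542 at 1 h, and 326, 325 and 275 at 6 h. The 6 h arrays lay above those of 0 h, as for 17.5% of all set A probe sets, while replicate 2 at 1 h lay among the 0 h arrays. The differences were 0.88 log2 at 1 h (adjusted p = 0.118) and 0.44 log2 at 6 h (adjusted p = 0.341). Without replicate 2 at 1 h the 1 h difference was 1.31 log2 (adjusted p = 0.0055).

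A dimmer probe set, 1425861_x_at on set A, read 36.0, 2.2 and 94.4 units at 0 h, 192, 143 and 130 at 1 h, and 138, 108 and 145 at 6 h. Its arrays at 1 h and at 6 h lay above all arrays of 0 h, 2 of which were below background. It was 1.63 ± 0.53 log2 higher at 6 h than at 0 h (adjusted p = 0.042), and at 1 h the difference of 1.84 log2 did not pass (adjusted p = 0.0683). Blocked by replicate number the 1 h difference passed at adjusted p = 0.0479. The 6 h call held in 6 of the 20 alternatives in which it was tested, and with the dimmest 50% left out it was not tested. It was lost when any 1 array but replicate 3 of 0 h was left out, with 0.94 log2 (adjusted p = 0.118) without replicate 2 of 0 h, and the sign turned to -0.17 log2 with the Gapdh ratio as a covariate.

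On set B 1440397_at read 277, 128 and 225 units at 0 h, 435, 257 and 240 at 1 h, and 924, 661 and 588 at 6 h. The 6 h arrays lay above all others, and all arrays of 0 h were below background. At 6 h it was at least 1.89-fold above 0 h (fitted 1.69 ± 0.51 log2), with an adjusted p of 0.0889 and of 0.0295 when blocked by replicate number. The fifth Cacna2d1 probe set, 1441608_at, was below background on all arrays of 0 h and 6 h.

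Cacna2d2, an alpha2delta subunit of cerebellum and some cortical neurons, read 311, 71.1 and 47.4 units at 0 h on 1450754_at, 121, 76.4 and 41.7 at 1 h, and 95.9, 46.7 and 36.0 at 6 h. The groups overlapped, and replicate 1 was highest at each time. Of the 3 arrays 2 were below background at 0 h and 2 at 6 h. The difference of -0.77 log2 at 6 h against 0 h (adjusted p = 0.403) did not pass. Its other probe sets, 1426185_at and 1451955_a_at, were too dim to be tested.

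**Figure D2:**
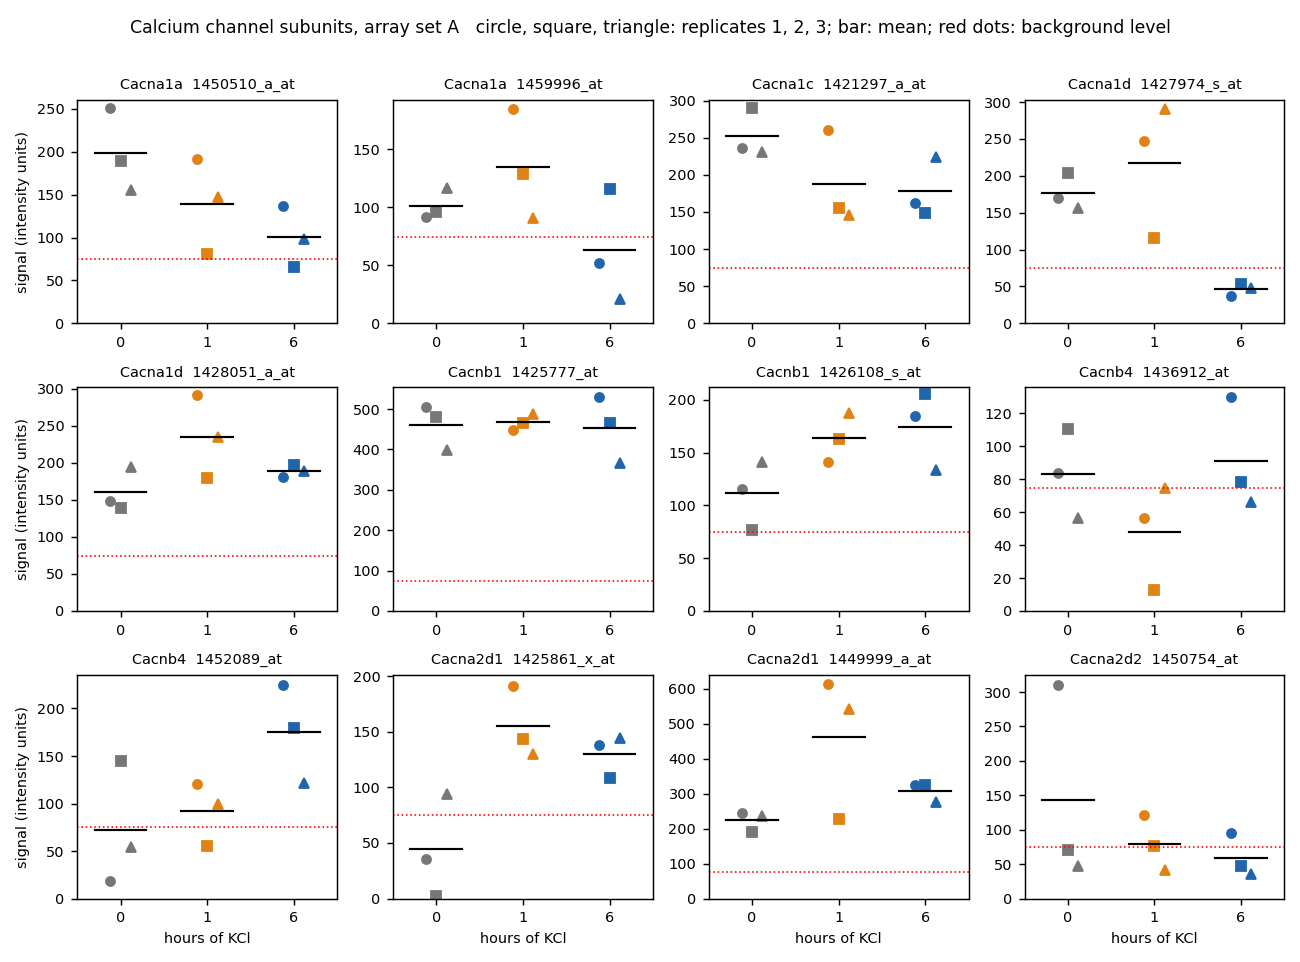
Signal of the 12 tested subunit probe sets on array set A, in deposited intensity units, against hours of KCl. Circles, squares and triangles are replicates 1, 2 and 3, bars are means and red dots the background level of 74.8 units. Cacna1d 1427974_s_at falls below background on all 3 arrays at 6 h, while Cacna1d 1428051_a_at stays between 181 and 197 units.

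Set against all features, the shares were close to the background on set A. At 1 h against 0 h, none of the 12 subunit probe sets of either array set passed in limma (0 of 12 each), where 4.17% (set A) and 0.219% (set B) of all probe sets passed, and 2 and 1 of them had an unadjusted p under 0.05. After 6 h 2 of 12 passed on set A against 0 h (16.7%, 1 higher and 1 lower), where 22.1% of all did, 10.4% higher and 11.7% lower. On set B 2 of 12 passed, both lower and both of Cacna1b, where 5.01% of all passed and 2.78% were lower. Arrays of 6 h and 0 h that did not overlap were common. On set A 2 of 12 subunit probe sets lay fully higher and 3 fully lower, where 17.5% and 21.8% of all did. On set B 1 lay fully higher and 3 fully lower, where 10.1% and 8.67% of all did. Blocked by replicate number 5 of 12 passed on set B (2 higher, 3 lower), where 8.7% of all did, and 1 passed at 1 h against 0 h, where 0.687% did. With the block on set A, 1 of 12 passed as higher and 2 as lower at 6 h against 0 h, where 24.3% of all passed. At 1 h against 0 h 1 of 12 passed there, where 6.02% of all did.

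Between 6 h and 1 h 1 of 12 subunit probe sets was lower on set A, where 11.6% of all passed and 6.51% were lower. On set B 2 of 12 were lower, where 2.35% of all passed and 1.38% were lower. On set B 5.09% of all passed that contrast with the block, and 3 of 12 subunit probe sets, all of Cacna1b. The median difference of the subunit probe sets at 6 h against 0 h was 0.04 log2 (set A) and -0.76 log2 (set B), against -0.05 and 0.01 over all probe sets. The set B median counts Cacna1b through 3 probe sets. It also includes Cacna1a 1430408_at and 1444455_at and Cacna2d1 1441608_at, which were below background on all arrays of 0 h and 6 h. It is therefore not a measure of a shift shared by the genes. Taking the brightest tested probe set per gene, with set A first, 1 of 9 genes passed at 6 h against 0 h. It was Cacna1b, which was lower, where 16.6% of all 15232 genes passed and 10.5% passed as lower.

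**Figure D3:**
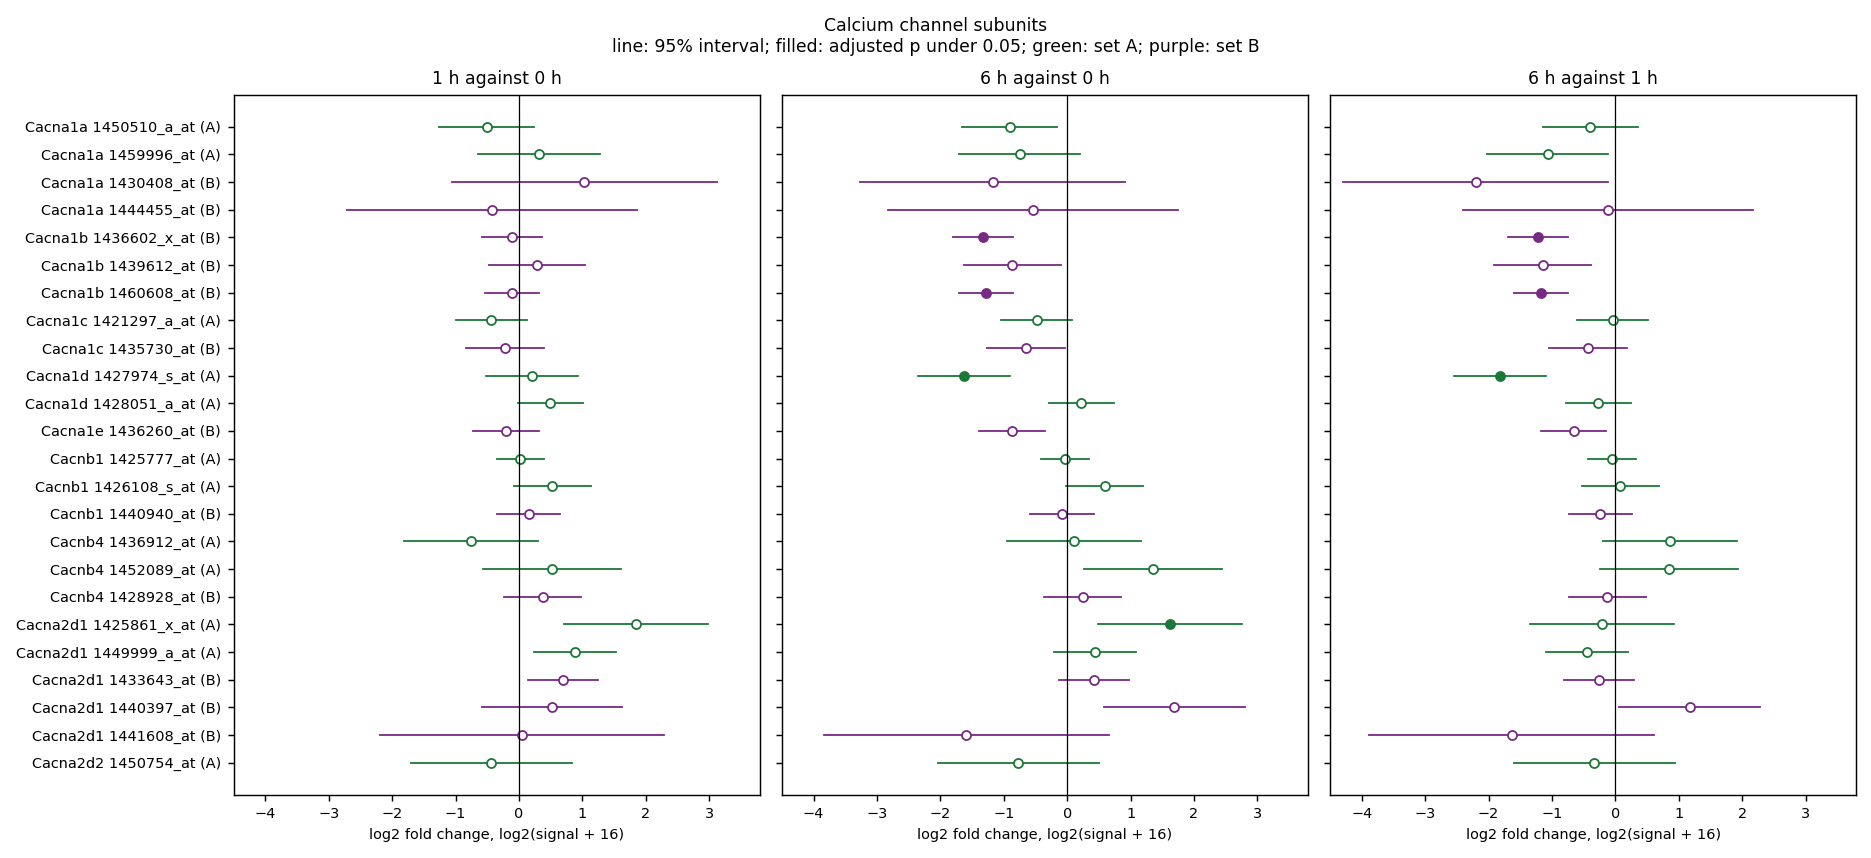
Log2 fold change of the 24 tested subunit probe sets in the 3 contrasts between times, with 95% intervals, on the log2(signal + 16) scale. Filled points have an adjusted p under 0.05, green marks set A and purple set B. No point is filled at 1 h against 0 h, and the filled points at 6 h against 0 h are Cacna1b 1436602_x_at and 1460608_at, Cacna1d 1427974_s_at and Cacna2d1 1425861_x_at.

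Related subunits were also set against each other as the difference of their log2 changes at 6 h against 0 h, in 3 pairs, each on 1 array set. Cacna1c (1421297_a_at) minus Cacna1d (1428051_a_at) was -0.71 log2 (exact permutation p = 0.1, adjusted 0.3, two-sided, n = 3 arrays each). The other Cacna1d probe set, 1427974_s_at, was not used there. Its fitted change was -1.63 log2, against -0.48 log2 for Cacna1c, so the sign of this pair depends on the probe set. Cacna2d1 (1449999_a_at) minus Cacna2d2 (1450754_at) was 1.21 log2 (exact permutation p = 0.2, adjusted 0.3). It ran from 0.56 to 1.72 log2 with 1 array left out. Cacna2d2 was below background on 2 of 3 arrays at 0 h and at 6 h, so the size of this difference is uncertain. The third pair, Cacna1a and Cacna1b on set B, could not be compared, since Cacna1a was below background at 0 h and 6 h. With 3 arrays against 3 the p cannot go below 0.1, so no pair could pass.

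Of 16 other calcium channel subunit genes 13 were measured. Each gene was read by its brightest tested probe set, taken from set A where it had one. At 1 h 0 of 13 passed, where 1.79% of all genes did. At 6 h 4 were lower and 0 higher, where 10.5% and 6.11% of all genes were. For 21% of all genes, read in the same way, the 6 h arrays lay below all 0 h arrays. Cacng2 and Cacng4 were counted through set A probe sets, although each had a probe set with higher signals on set B. The T-type pore genes, whose channels open near rest, were among them. Cacna1g read 436, 454 and 309 units at 0 h, 478, 448 and 410 at 1 h, and 246, 269 and 143 at 6 h. Its 6 h arrays lay below all others, and it fell by 0.85 log2 against 0 h (adjusted p = 0.0212) and by 1.01 log2 against 1 h (adjusted p = 0.0154). Cacna1h read 353, 388 and 377 units at 6 h, against 507, 549 and 503 at 0 h, without overlap, and fell by 0.46 log2 (adjusted p = 0.0465).

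The gamma-type genes Cacng2 and Cacng4 encode proteins now better known as partners of AMPA receptors. Cacng2 read 86.6, 35.2 and 42.0 units at 6 h on set A 1420596_at, against 299, 622 and 356 at 0 h, which is -2.65 log2 (adjusted p = 0.00482), with 1 of the 3 arrays at 6 h above background. On set B 1440210_at read 1578, 1240 and 1549 units at 6 h, against 2866, 2611 and 3217 at 0 h, and it fell by 0.88 log2 (adjusted p = 0.0334). Neither pair of groups overlapped. Cacng4 on set A 1450975_at was below background on all 3 arrays at 6 h, at least 3.44-fold lower than at 0 h (adjusted p = 0.00184), while its brighter set B probe set 1455230_at differed by -0.55 log2 (adjusted p = 0.115).

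A dimmer Cacng5 probe set, 1426330_at, was 1.05 log2 higher at 6 h than at 0 h (adjusted p = 0.0141), while its brightest one, 1434785_at, differed by 0.22 log2 (adjusted p = 0.427). All 5 of these set A calls ended once a 5′ to 3′ ratio entered the fit. With the Gapdh and the Actb ratio the folds were -0.43 and -0.52 log2 for Cacna1g, -0.44 and -0.38 for Cacna1h, -1.50 and -2.68 for Cacng2, -1.97 and -2.49 for Cacng4 and 0.31 and 0.49 for Cacng5. The set B call of Cacng2 ended too, at -1.30 and -0.83 log2 (adjusted p = 0.0656 and 0.705), as it did with median scaling, without trend and without replicate 2 or 3 at 0 h or replicate 1 or 2 at 6 h (adjusted p = 0.0838 to 0.144 for these arrays). That of Cacna1g also ended without replicate 1 or 2 at 0 h or replicate 3 at 6 h, and that of Cacna1h ended without any 1 of the arrays of 0 h or 6 h, or replicate 2 at 1 h. Cacna1h also missed the threshold with no filter, quantile or median scaling, no trend or the replicate block (adjusted p = 0.051 to 0.0746).

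**Figure D4:**
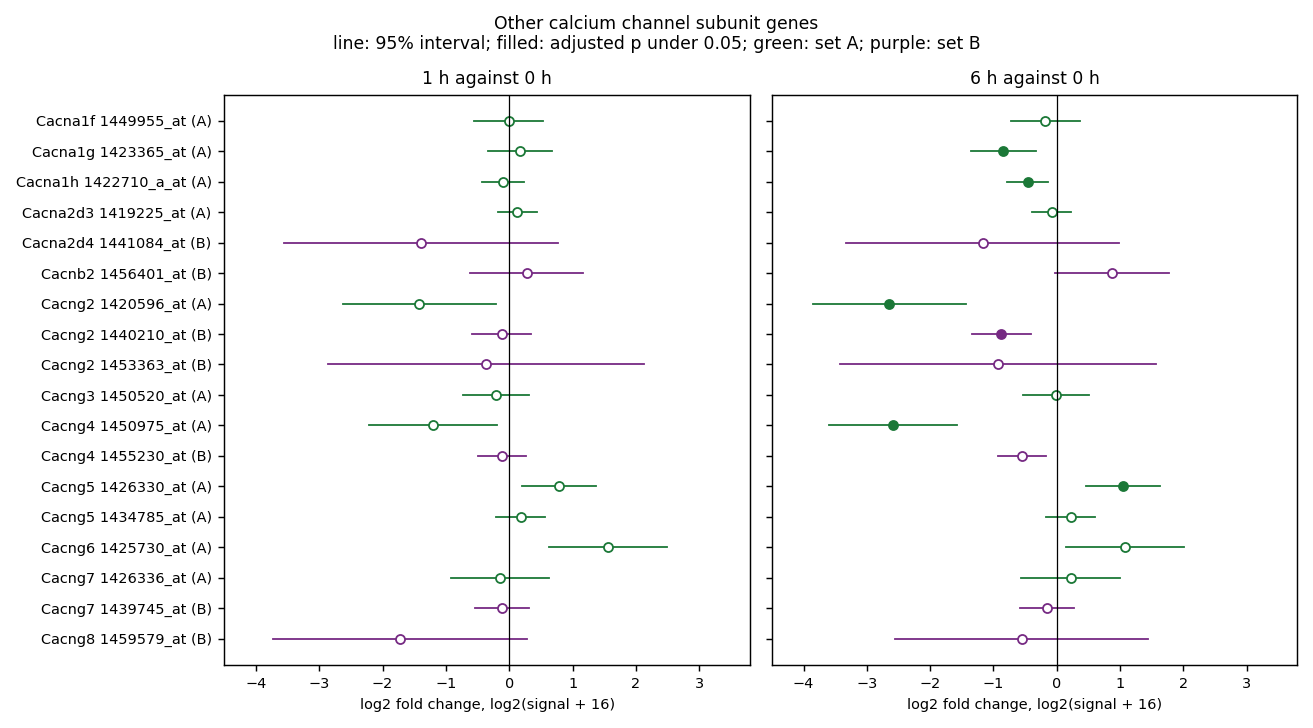
Log2 fold change of 18 probe sets of other calcium channel subunit genes at 1 h and at 6 h against 0 h, with 95% intervals, on the log2(signal + 16) scale. Filled points have an adjusted p under 0.05, green marks set A and purple set B. Cacna1g, Cacna1h, Cacng2 (2 probe sets) and Cacng4 1450975_at are lower and Cacng5 1426330_at is higher at 6 h.

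Of 28 channel partners 20 were measured, and 2 were higher and 0 lower at 1 h against 0 h, where 1.1% and 0.689% of all genes were. At 6 h 6 were higher and 2 lower, where 6.11% and 10.5% of all genes were. Rem2, a small GTPase that inhibits these channels, read 181, 230 and 345 units at 0 h, 631, 584 and 604 at 1 h, and 744, 766 and 870 at 6 h. Its 3 times did not overlap. It was 1.26 log2 higher at 1 h than at 0 h (adjusted p = 0.00431) and 1.64 ± 0.20 log2 higher at 6 h (adjusted p = 0.000141). With either 5′ to 3′ ratio in the fit the 1 h call of Rem2 ended and the 6 h call held, at 1.22 log2 with the Gapdh and 1.18 log2 with the Actb ratio. Syt1, the calcium sensor of transmitter release, was 1.81 log2 higher at 1 h (adjusted p = 0.0149) and 1.68 log2 higher at 6 h (adjusted p = 0.00495). Both Syt1 calls ended with either ratio, at 0.61 and 0.40 log2 at 1 h and 0.35 and 0.65 log2 at 6 h (adjusted p = 0.421 to 0.981), and the 1 h call also without trend or without replicate 1 at 1 h (adjusted p = 0.0552). Stac, an adaptor of L-type pores, was 1.42 log2 higher at 6 h (adjusted p = 0.0223), and Rims2, which tethers pores at the active zone, 0.97 log2 higher (adjusted p = 0.00674). The Stac call ended with the Gapdh ratio (2.22 log2, adjusted p = 0.0651) and without any 1 array of 6 h, and the Rims2 call with either ratio (0.75 and 0.66 log2). Akap5, an anchoring protein of L-type pores, differed by -0.60 log2 (adjusted p = 0.641) and did not pass.

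Downstream, 29 of 30 genes of calcium signalling to the nucleus were measured, and at 6 h against 0 h 6 were higher and 8 lower, where 6.11% and 10.5% of all genes were. The genes of this list with the greatest changes were higher. Crem, a CREB-family transcription factor, was 0.93 log2 higher at 1 h (adjusted p = 0.00959) and 2.63 log2 higher at 6 h (adjusted p = 9.67e-07) than at 0 h. Adcy8, a calcium-stimulated adenylyl cyclase, was 1.01 log2 higher at 1 h (adjusted p = 0.0433) and 1.85 log2 higher at 6 h (adjusted p = 0.000289). Camk2d, a calmodulin-dependent kinase, was 1.38 log2 higher at 6 h (adjusted p = 0.00694), and Rcan2, a calcineurin regulator, 1.25 log2 higher (adjusted p = 0.000731). Among those that fell, named after their values were seen, was Rcan1, also a calcineurin regulator, by 0.83 log2 at 6 h (adjusted p = 0.00197). Camk2g, a kinase of the same family as Camk2d, fell by 1.10 log2 (adjusted p = 0.00219). Camk2a fell most, at -1.19 log2 (adjusted p = 0.0492), a call that ended with either ratio (-0.69 and -1.44 log2) and in other settings. Prkacb too fell more than Rcan1, at -0.91 log2 (adjusted p = 0.000197). The 6 h calls of Crem, Adcy8 and Rcan2 held with either ratio, while those of Camk2d (1.00 and 0.96 log2) and Rcan1 (-0.86 and -0.67 log2) ended, and that of Camk2g ended with the Gapdh ratio (-1.13 log2). At 1 h 3 genes were higher and 1 lower, where 1.1% and 0.689% of all genes were. The lower one was Nfatc4, a calcineurin-dependent transcription factor, at -0.997 log2 (adjusted p = 0.0484). The 1 h calls of Adcy8 and Nfatc4 ended without any 1 array (adjusted p = 0.0532 to 0.132 and 0.0565 to 0.141), with no filter, without trend and with either ratio, and that of Crem ended with either ratio (0.64 and 0.56 log2).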

How the data were processed

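The deposited values are linear intensities, 1 per probe set and array, made by the authors from a pair of Affymetrix mouse array sets, A and B. Per the labels' protocols, 200 ng of total RNA was labelled with biotin. No source used here gives the summary method, the scanner software or the genome build. On set B the 3 arrays numbered 1 hold 27.4% to 28% of values below 0 and the other arrays none.

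Each value, floored at 0, was taken as log2(value + 16). Array medians spread by 0.24 log2 on set A, whose deposited scale was kept, and by 0.56 on set B, which was quantile-normalized, the limit being 0.5. The 64 control probe sets of each set and the dimmest 25% were left out, leaving 16969 of 22626 on A and 16883 of 22511 on B. Each set was fitted with limma 3.58.1 in R 4.3.3 (lmFit over 3 times and 9 arrays, eBayes with an intensity trend), two-sided, with Benjamini-Hochberg adjustment within set and contrast, which was tested on simulated data. Signals in the text are deposited ones. Other tools were data.table (version 1.17.8), statmod (1.5.0, for the robust alternative), Python 3.11.15 and, for figures, matplotlib 3.10.9.

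Members, gene lists and tests were chosen with earlier results of these data known. Every member probe set is given. Other subunit genes with a tested probe set could be named, and of partners and signalling genes up to 4 past the threshold and 2 that missed it per contrast against 0 h. The signalling genes that fell at 6 h were named beyond this rule. The number of arrays limits the precision.

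Same-numbered arrays deviated together on set B, with correlations of their deviations from the time means of 0.15 to 0.476 in 9 pairs, against -0.308 to 0.197 for differently numbered ones. The series text describes 3 independent experiments. On set A the range was 0.0181 to 0.174 (mean 0.0741), against -0.137 to 0.0343 (mean -0.037) for differently numbered ones. Same-numbered arrays thus deviated together there too, but less. The numbers were not taken as pairs in the main fit of either set. Array correlations of 0.917 to 0.964 on set A and 0.741 to 0.888 on set B showed no array deposited more than once.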

Additional observations from a re-analysis of the deposited data

Results flagged for a closer look

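The changes against 0 h differed between 6 h and 1 h for 3 subunit probe sets, by limma's contrast of the 6 h and 1 h arrays. Cacna1d 1427974_s_at differed by -1.83 log2 between them (adjusted p = 0.00403), with its 6 h arrays below background. Cacna1b 1436602_x_at differed by -1.23 log2 (adjusted p = 0.0109). Cacna1b 1460608_at differed by -1.18 log2 (adjusted p = 0.00741). Both Cacna1b differences missed the threshold with pseudocount 64, on the deposited scale, with median scaling and without the intensity trend (adjusted p up to 0.469). That of Cacna1d passed in all 20 alternatives in which its probe set was tested. With the dimmest 50% left out it was not tested. For each of the 3 probe sets the arrays at 6 h lay below those at 1 h, as did those of 17.7% of all set A and 6.76% of all set B probe sets.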

How the results depend on the processing

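Counts of probe sets past the threshold moved most. In all probe sets of set A, 707 passed at 1 h against 0 h. There 265 passed with eBayes without trend, 64 and 52 with the Gapdh and the Actb 5′ to 3′ ratio as a covariate, 271 with only the 2 times compared in the fit, and 277 to 1308 with 1 array left out. Against 0 h, 3753 passed at 6 h, and 584 and 809 with the 2 ratios. Between 6 h and 1 h 1964 passed, and 1030 to 2149 with 1 array left out.

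In all probe sets of set B, 37 passed at 1 h against 0 h. There 16 passed with pseudocount 64, 15 on the deposited scale, 5 with median scaling, 5 without trend, 116 with the replicate block, 4 and 3 with the Gapdh and Actb ratios, 111 with a covariate for the arrays that hold values below 0, 18 without the 3 arrays that hold values below 0, 17 with only 2 times in the fit, and 9 to 70 with 1 array left out. Against 0 h, 846 passed at 6 h, against 481, 443, 127, 150, 1468, 122, 39 and 1428 under the first 8 of these settings, and 431 to 816 with 1 array left out. Between 6 h and 1 h 397 passed, against 116 with pseudocount 64, 97 on the deposited scale, 4 with median scaling, 12 without trend, 859 with the replicate block, 243 with the Actb ratio, 812 with the covariate for arrays with values below 0, and 171 to 430 with 1 array left out.

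Of the subunit probe sets on set A, 0 passed at 1 h against 0 h in limma, 1 with pseudocount 64, 1 with the replicate block and 0 to 1 with 1 array left out. Then 2 passed at 6 h against 0 h. There 1 passed with pseudocount 1, with no filter, without trend and with only 2 times in the fit, 0 with the dimmest 50% left out and with either ratio, and 1 to 2 with 1 array left out. Between 6 h and 1 h 1 passed, 0 with the dimmest 50% left out and 1 to 2 with 1 array left out. Cacna1a 1450510_a_at passed at 6 h with the replicate block on set A (adjusted p = 0.0381).

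On set B 1 subunit probe set passed at 1 h with the replicate block and with that covariate, against 0. At 6 h against 0 h 2 passed, 0 with median scaling, without trend or with either ratio, and 5 with the replicate block or that covariate. At 6 h against 1 h 2 passed, and 0 with pseudocount 64, on the deposited scale, with median scaling or without trend. By brightest probe set, with set A first, 1 gene passed at 6 h against 0 h. The count was 0 with median scaling, without trend or with either ratio, 3 with the replicate block and 2 with that covariate. By the probe set of smallest p, for which no share over all genes was counted, it was 2. With 1 array left out it was 1 to 2. At 1 h against 0 h the range was 0 to 1. At 6 h against 1 h 1 passed, 0 with pseudocount 64, median scaling, without trend or on the deposited scale, 2 by smallest p, and 1 to 2 with 1 array left out.

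The Cacna1a minus Cacna1b difference on set B, which has no direction since Cacna1a was below background, was 0.11 log2 and turned to -0.63 with pseudocount 1 and to -0.033 on the deposited scale and with median scaling, and ran from -1.11 to 0.78 with 1 array left out. Cacna2d1 1425861_x_at turned to -0.17 log2 with the Gapdh ratio. The cause of these moves was not tested, beyond the fewer arrays or probe sets in a fit. The 2 alternatives on set B arrays numbered 1 were chosen after seeing the data. A set B signal under 369 units or a set A signal under 74.8 units carries no order.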
